A study of Sus scrofa with 55 samples.

Results

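Cytosolic ribosomal protein genes were examined in single pig oocytes (Sus scrofa) from 5 antral follicle stages. Members were the genes of the count table whose symbol begins with RPL or RPS and a number, together with RPSA, RPLP0, RPLP1, RPLP2 and RACK1, leaving out the RPS6 kinases and RPS19BP1. They came to 52 of 25880 genes, 26 of the large subunit and its stalk and 26 of the small subunit. RefSeq's table of the Sscrofa11.1 assembly lists 84 symbols that meet the same rule. The 32 of these that are not among the members, such as RPL8, RPS6 and RPS19, were not analysed here, so summed levels are sums over the 52 members and not over a whole ribosome.

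The cytosolic ribosome translates messenger RNA with a large subunit, which joins amino acids, and a small subunit, which reads the codons. Messenger RNAs of its proteins begin with a terminal oligopyrimidine (TOP) motif, through which growth signalling by mTOR and the binding protein LARP1 turn their translation and storage up or down together. A growing oocyte stores ribosomes and ribosomal protein messages for the embryo, and when it is fully grown its transcription falls silent.

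The 55 libraries came from wild-type Landrace and Yorkshire gilts of 208 to 210 days, 14 oocytes from gilt 201, 9 from gilt 205, 12 from gilt 801 and 20 from gilt 803. Stages 1 to 5 held 11, 12, 11, 11 and 10 oocytes, and gilt 801 gave none at stage 5. Every group shares the same hormone treatment, since each gilt was given PMSG (5 IU), a gonadotropin from pregnant mares that makes follicles grow. Ovaries were collected 48 h later. Cytoplasmic RNA was amplified by Smart-seq2, a full-length single-cell method, over 16 PCR cycles. What separates the 5 stages is not given in the sources used here.

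Total counts per oocyte ran from 151104 to 38282850 (median 12139540), with 3 libraries under 1000000. The 13 mitochondrially encoded genes took 2.104% to 91.8% of a library (median 71.0%), so levels are given as CPM (counts scaled to 1000000 per library) of all counts and as CPM without those genes. The oocyte label was checked with 14 measured oocyte markers and 18 measured granulosa and cumulus markers, genes of the somatic cells that surround the oocyte. Granulosa marker counts exceeded oocyte marker counts in 13 libraries, called granulosa-rich from here on. Of these, 12 were from gilt 803 and 1 from gilt 801, and they numbered 3, 1, 3, 4 and 2 at stages 1 to 5. Oocyte markers summed to a median of 1157 CPM without mitochondrial genes (49.3 to 5400.0) in the granulosa-rich libraries and to 71002 (1639 to 339737) in the 42 others. Granulosa markers summed to 12924 (5192 to 33547) and 659 (49.8 to 20826), and AMH, one of them, was at 0 in every library. Counts from the oocyte and from any attached somatic cell cannot be told apart in these libraries, nor can fewer such cells be told from less RNA per cell.

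Most members were seen in nearly every oocyte. Of the 52, 31 had counts in all 55 oocytes and 45 in at least 50, and an oocyte held counts for 40 to 50 members (median 46). Summed member counts ran from 6080 to 944412 per oocyte. A few members had almost no counts, and these were singled out after their values were seen. RPL29, of the large subunit, and RPS27A, which is made as a fusion with ubiquitin, had 0 counts in all 55 oocytes. RPS21 had 8 counts in 4 oocytes, and RPS2, at the messenger RNA entry side of the small subunit, had 595 in 25. A second deposited table, scaled by gene length, gave RPL29 a median of 40.1, RPS27A 36.4, RPS21 52.2 and RPS2 4.54 in its own unstated unit. The low counts of these members therefore differ between both tables made from the same libraries. In RefSeq, RPL29 overlaps ACY1, and RPS2 overlaps RNF151 and NDUFB10, while RPS21 and RPS27A overlap no other gene. Overlaps are also listed for well-counted members, RPL7A with MED22, RPS18 with VPS52, RPS25 with CCDC84, RPS28 with NDUFA7 and RPS4X with a pseudogene. How reads that match several genes were counted is not given, and ribosomal protein genes have many near-identical pseudogene copies, so each member's count is uncertain by the reads it shares with such copies.

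Summed ribosomal protein levels differed far more between oocytes of a stage than between stages. On the scale of all counts, the stage medians were 15377 CPM at stage 1 (397 to 71132, n = 11 oocytes), 1983 at stage 2 (703 to 95107, n = 12), 1885 at stage 3 (839 to 59806, n = 11), 8484 at stage 4 (493 to 56933, n = 11) and 3395 at stage 5 (477 to 65935, n = 10). The ranges of the 5 stages overlapped almost completely. Without mitochondrial genes in the total, the medians were 18800.3, 9588, 13134, 24404 and 8367 CPM. The ratio of the highest to the lowest oocyte within a stage fell from between 71.3 and 179 on the first scale to between 12.8 and 22.9 on the second. The highest oocyte of all held 10.3% ribosomal protein counts without mitochondrial genes (103210 CPM, stage 2, gilt 803, oocyte 4) and was also the shallowest library.

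**Figure D1:**
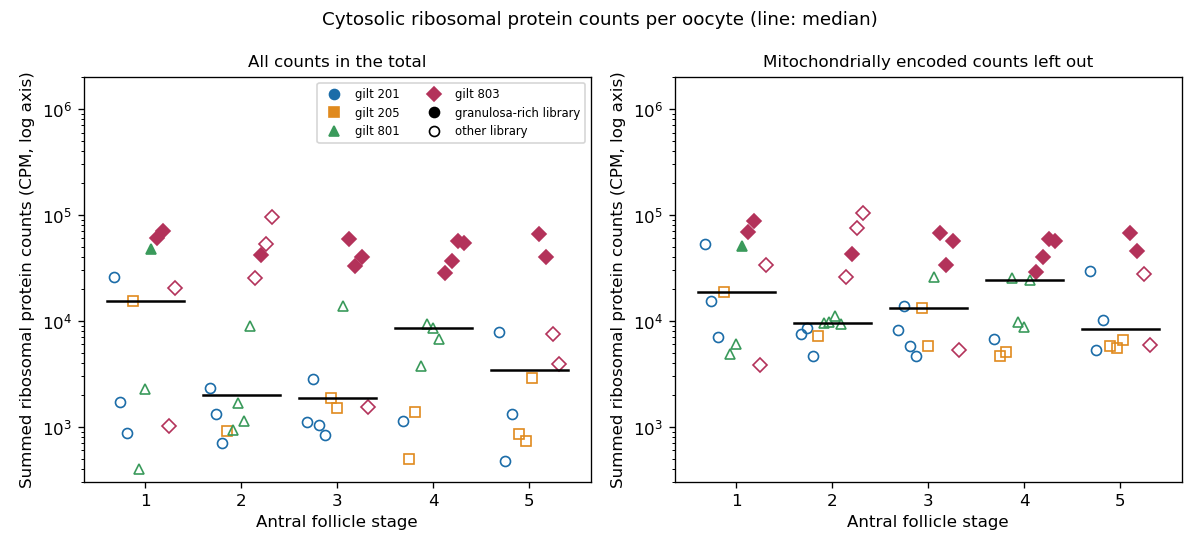
Summed counts of the 52 ribosomal protein genes in each of 55 oocytes, in CPM on a log axis, by antral follicle stage, with all counts in the total (left) and without the 13 mitochondrially encoded genes (right). Colours and shapes mark the gilt, filled points the 13 granulosa-rich libraries, and lines the stage medians, which lie between 1885 and 15377 CPM on the left and between 8367 and 24404 on the right.

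In gilt-by-stage sums, the unit that was tested, stage means likewise lay within each other's spread. Without mitochondrial genes they were 28977 ± 8693 CPM at stage 1 (SD, n = 4 gilts), 17470.3 ± 19365 at stage 2 (n = 4), 20419 ± 15703 at stage 3 (n = 4), 17209.6 ± 19802 at stage 4 (n = 4) and 19871 ± 13864 at stage 5 (n = 3). On all counts they were 11408 ± 2858, 12369 ± 20421, 11919 ± 13875, 13645 ± 20879.5 and 9709.9 ± 13018. The large SD at stages 2 to 5 came with gilt 803, whose sums were 46465, 40163, 46722 and 33905 CPM without mitochondrial genes, each above every other gilt's sum at its stage. At stage 1 the 4 gilts lay closer, at 39940.4 (gilt 201), 18800.3 (gilt 205), 29729.7 (gilt 801) and 27439 (gilt 803). A few libraries carried these stage 1 sums. Gilt 201 had 1 oocyte at 52784 CPM beside 15388 and 7088, and gilt 801 stood at 5689 without its 1 granulosa-rich library.

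Ribosomal protein levels went with the granulosa marker counts across libraries. The summed level without mitochondrial genes had a median of 57027 CPM in the 13 granulosa-rich libraries (28706 to 86831) and of 8652 in the 42 others (3799 to 103210). Both kinds of library overlapped, since 5 of the 42 others exceeded the lowest granulosa-rich one. On log2 scales, Pearson's r with the granulosa marker sum was 0.709 over 55 oocytes (Spearman's rho 0.680) and 0.545 over the 42 others, and r was -0.860 within the 13 granulosa-rich libraries. Over all 55 oocytes, r was -0.722 with the oocyte marker sum, -0.698 with the mitochondrial percentage and -0.538 with log10 total counts. In the same order, r was -0.489, -0.457 and -0.628 over the 42 others. Within the 13 granulosa-rich libraries the values were 0.112, 0.431 and -0.651. These points share library, depth and, by gilt, animal, so the values are descriptions. In the 32 libraries whose granulosa counts were under 10% of the oocyte counts, the level had a median of 7111 CPM and ran from 3799 to 29852, and the stage medians were 6102 (n = 5), 9379 (n = 9), 5790.5 (n = 7), 7792 (n = 6) and 5792 (n = 5).

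Some libraries were high in ribosomal protein counts with few granulosa counts. Oocytes 3 and 4 of gilt 803 at stage 2 had 76045 and 103210 CPM of ribosomal protein counts beside 296 and 445 CPM of granulosa markers. Their oocyte markers were the lowest of the 42 others, at 1639 and 2384 CPM, so granulosa counts were still above 10% of oocyte counts in both. Oocyte 3 had 17903 CPM of blood, immune and endothelial markers, the highest of all 55, and oocyte 4 had 1566 CPM of theca and stroma markers. The part these counts have in the ribosomal protein level was not tested.

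**Figure D2:**
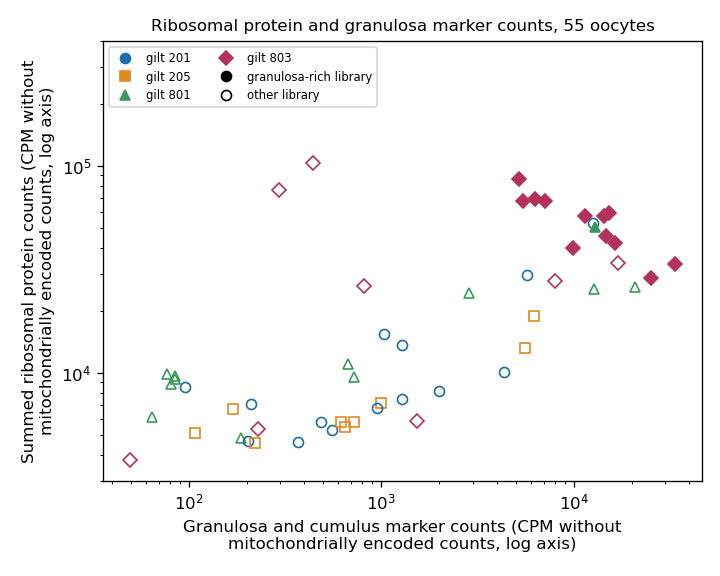
Summed ribosomal protein counts against summed granulosa and cumulus marker counts in 55 oocytes, both in CPM without mitochondrially encoded genes on log axes. Colours and shapes mark the gilt and filled points the 13 granulosa-rich libraries, which lie at 28706 CPM or more, while 37 of the 42 other libraries lie below that level and 2 open points of gilt 803 stand highest at low granulosa counts.

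Stage 5 was set against stage 1 to ask how the messages differ between the last and the first antral stage. Of the 52 members, 49 passed the filter on low counts and 0 were called at an adjusted p under 0.05 by edgeR's quasi-likelihood test, where 0% of all 15637 genes were called. DESeq2 and limma-voom also called 0 members, and of all 15637 genes they called 365 and 0. In simulated data with the spread of these sums, the edgeR test did not recover the changes that had been put in for this comparison, so the lack of calls says little about whether members differ. At an unadjusted p under 0.05, 1 member was found beside 5.37% of all genes. Fitted changes were below 0 for 46 of the 49 (57.3% of all genes), with a median log2 change of -0.77 beside -0.27 for all genes. The median SE of a member was 0.75. Granulosa markers were at 7926 ± 1594 CPM without mitochondrial genes in stage 1 sums (SD, n = 4) and 3681 ± 3052 in stage 5 sums (n = 3), and their part in the change was not tested. The direction did not hold in every gilt: the median member change between these stages was -1.02 in gilt 201, -1.71 in gilt 205 and 0.32 in gilt 803. An alternative chosen after seeing the data left out the 23 libraries whose granulosa counts exceeded 10% of their oocyte counts. The median was then 0.36, and 13 of 48 tested members were below 0 beside 6357 of 14538 genes. Only gilt 201 then kept oocytes of both stages. With only the 13 granulosa-rich libraries left out, the median was -0.93, and 47 of 48 members were below 0 beside 8070 of 14706 genes.

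The stalk proteins P0, P1 and P2 form the arm of the large subunit that recruits elongation factors. RPLP0 had 2766, 1295, 2313 and 1594 CPM without mitochondrial genes at stage 1 in gilts 201, 205, 801 and 803, and 1158, 169.5 and 2338 at stage 5 in gilts 201, 205 and 803. These groups overlapped through gilt 803, and the fitted log2 change was -1.34 ± 0.80 (SE, adjusted p = 0.931 by edgeR). The smaller stalk proteins had changes of -0.55 ± 0.71 (RPLP1) and -0.54 ± 0.72 (RPLP2).

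Among the large-subunit proteins, changes below 0 were found for 20 of 22 tested, with a median of -0.76. RPL10, which sits near the peptidyl-transferase centre, had -1.32 ± 0.75, RPL3, which helps shape that centre, -0.65 ± 0.80, and RPL27 -0.11 ± 0.72. None of these passed the test by edgeR (adjusted p from 0.930 to 1.000), and each lay within 2 SE of 0.

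In the small subunit, 23 of 24 tested members had changes below 0, with a median of -0.79. RPSA, also known as the laminin receptor precursor, had 1273, 436, 1004 and 772 CPM at stage 1 and 428, 81.7 and 517 at stage 5. The 2 stages overlapped between gilt 205 at stage 1 and gilt 803 at stage 5, and the change was -1.63 ± 0.79 (p = 0.048, adjusted p = 0.919 by edgeR). RACK1, a scaffold for kinases on the head of the small subunit, had 1109.7, 441, 691 and 534 CPM at stage 1 and 336, 65.1 and 689 at stage 5, a change of -1.38 ± 0.76. RPS3A had a change of -1.51 ± 0.86, from 1199.5, 329.8, 894 and 714 CPM to 408, 42.6 and 996. RPS18 had a change of 0.0079 ± 0.70. The sparse RPS2 had -2.27 ± 2.13, an estimate that rests on 595 counts in all.

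**Figure D3:**
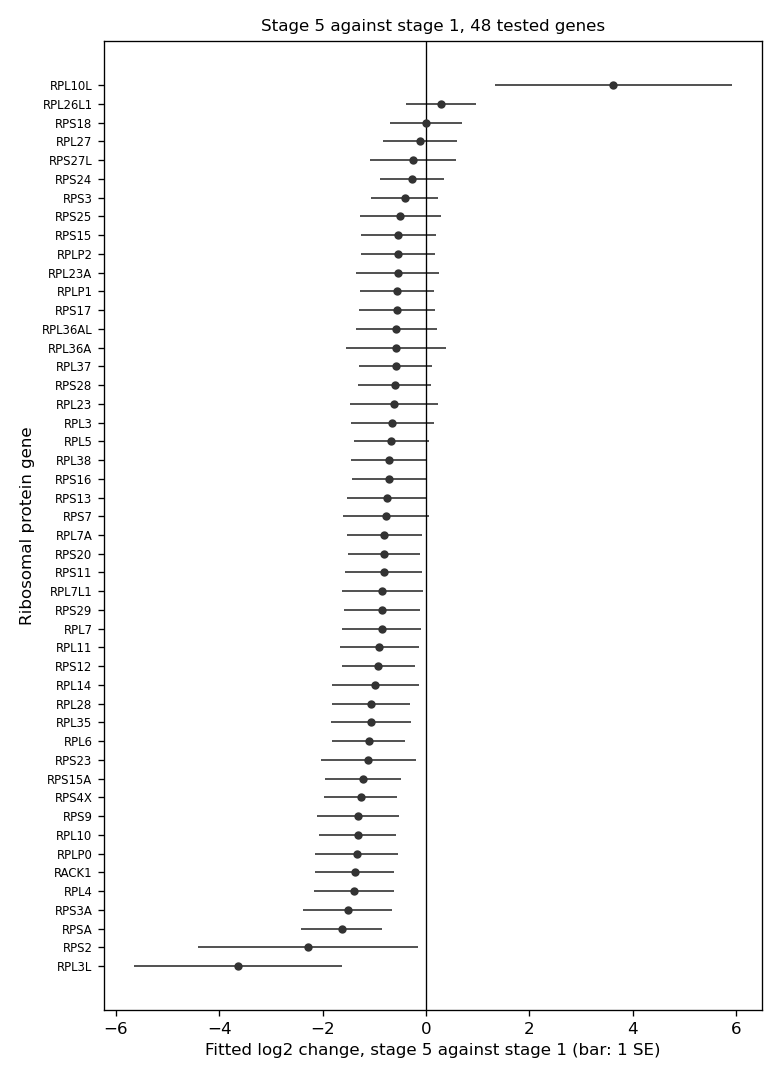
Fitted log2 change of stage 5 against stage 1 for 48 tested ribosomal protein genes, with bars of 1 SE, from edgeR's quasi-likelihood fit over gilt-by-stage sums. Points lie below 0 for 45 of these genes, the extremes RPL3L and RPL10L rest on 99 and 433 counts, and 0 genes passed the adjusted threshold.

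A trend across stages 1 to 5 gave 47 of 49 negative slopes, with a median log2 change of -0.18 per stage beside -0.057 for all genes, of which 57.5% were negative. It called 0 members by edgeR, DESeq2 and limma-voom, beside 0.0128% of all 15637 genes by edgeR, 161 genes by DESeq2 and 0 by limma-voom. By edgeR, 3 members had an unadjusted p under 0.05 beside 5.76% of all genes. With the 23 libraries above 10% left out, the median slope was -0.0039 and 25 of 48 were negative, and without the granulosa-rich libraries it was -0.30 and 48 of 48 were negative. Median slopes by gilt were -0.20 (gilt 201), -0.42 (gilt 205), -0.32 (gilt 801) and 0.047 (gilt 803). The steepest slopes among well-counted members were those of RPSA (-0.35 ± 0.17) and RPL10 (-0.33 ± 0.16).

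Between neighbouring stages 0 members were called in each of 4 comparisons by edgeR, DESeq2 or limma-voom. Of all 15637 genes, edgeR and limma-voom called 0, and DESeq2 called 415, 311, 266 and 216 in stage order. The step with most unadjusted p under 0.05 was stage 2 against stage 1, with 20 members and 1034 of 15637 genes. The member count was 2 without gilt 201 (617 of 16387 genes), 2 without gilt 205 (499 of 16301) and 1 without gilt 801 (775 of 14441). It was 32 without gilt 803 (1646 of 15881 genes) and 3 with each oocyte as a library (1008 of 12041). In the main fit of this step 47 of 49 members were below 0 (63% of all genes), with a median log2 change of -1.37 beside -0.50 for all genes. RPS3A had -2.35 ± 0.80, RPS12 -1.92 ± 0.67 and RACK1 -1.79 ± 0.71 in this step. The gilts again differed in direction, with medians of -2.85, -1.43 and -1.74 in gilts 201, 205 and 801 and 0.68 in gilt 803. Stage 1 sums held 7926 ± 1594 CPM of granulosa markers (SD, n = 4) and stage 2 sums 3446 ± 5776 (n = 4). Without the granulosa-rich libraries the median was -0.17 and 0 members had an unadjusted p under 0.05, beside 780 of 14706 genes. With the 23 libraries above 10% left out the median was 0.62.

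Fitted medians of the later steps alternated in sign, but the gilts differed. In stage order from stage 3 against stage 2, the medians by gilt were 0.23, 0.032 and 1.58 in gilt 201. They were 0.19, -0.82 and 0.33 in gilt 205, and 1.46 and -1.46 in gilt 801, which had no stage 5. Gilt 803 had -0.37, 0.24 and -0.49. Stage 3 against stage 2 had 2 members below 0 (45.1% of all genes) and a median of 0.77 beside 0.17 for all genes, which for members became -0.20 without the granulosa-rich libraries. Stage 4 against stage 3 had 44 members below 0 (53.7% of all genes) and a median of -1.04 beside -0.12. Stage 5 against stage 4 had 6 below 0 (45.5% of all genes) and a median of 0.75 beside 0.16 (-0.013 for members without gilt 201). Without the granulosa-rich libraries the median was -1.11 for stage 4 against stage 3, beside -0.13 for all genes. For stage 5 against stage 4 it was then 0.50 beside 0.23. That filter left gilt 803 no library at stage 4. Granulosa markers in the sums were at 3446 ± 5776 CPM without mitochondrial genes at stage 2, 11779 ± 11849 at stage 3, 4557 ± 8069 at stage 4 (SD, n = 4 each) and 3681 ± 3052 at stage 5 (n = 3), and their part in these steps was not tested. An F test over all stages called 0 members by edgeR, DESeq2 and limma-voom, where 0, 47 and 0 of all 15637 genes were called. By edgeR, 4 members were at an unadjusted p under 0.05, beside 840 of 15637 genes. The smallest p belonged to RPS12 (p = 0.0281), RPS3A (p = 0.0298) and RPLP0 (p = 0.0299), each with an adjusted p of 0.879 or 0.880.

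The gilts, in contrast, differed in many members. The F test among gilts, in the same edgeR model with stage, called 29 of the 49 tested members beside 2.17% of all 15637 genes. Each of the 29 had its highest mean in gilt 803 and its lowest in gilt 205. By role, 2 of 3 stalk members, 11 of 22 other large-subunit members and 16 of 24 small-subunit members were called. Mean summed levels without mitochondrial genes were 16120.3 ± 14374 CPM in gilt 201 (SD, n = 5 stages), 9026 ± 5581 in gilt 205 (n = 5), 18874 ± 10471 in gilt 801 (n = 4) and 38939 ± 8311 in gilt 803 (n = 5).

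RPS12, a small-subunit protein, had the smallest p (adjusted p = 0.00359 by edgeR). Its levels at stages 1 to 5 were 522, 1013, 611, 692 and 901 CPM in gilt 803 and 215, 29.8, 94.4, 47.0 and 80.0 in gilt 205, with no overlap between these gilts. Gilt 201 had 791, 80.2, 135, 96.7 and 249.5 CPM and gilt 801 had 611, 131, 457 and 133 at its 4 stages, so both overlapped gilt 803 through stage 1.

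RPS29, a zinc-binding protein of the small subunit, averaged 878 ± 293 CPM in gilt 803 and 93.7 ± 45.0 in gilt 205 (SD, n = 5 each, adjusted p = 0.00512 by edgeR). RPS3A averaged 1148 ± 314 and 130.0 ± 118 (adjusted p = 0.00698), and RPL10 averaged 1384 ± 420.1 and 217 ± 183 (adjusted p = 0.00744). Of the stalk, RPLP1 (2213 ± 445 and 339.9 ± 267 CPM, adjusted p = 0.00902) and RPLP0 (2835 ± 885 and 498 ± 490.5, adjusted p = 0.0118) were called, and RPLP2 (437 ± 120.2 and 125 ± 48.9, adjusted p = 0.0839) was not. RPSA (adjusted p = 0.0125) and RACK1 (adjusted p = 0.0197) were also called.

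Gilts that differed in ribosomal protein levels also differed in other counts. Granulosa markers averaged 3098 ± 3550 CPM without mitochondrial genes in gilt 201, 2000.2 ± 2507 in gilt 205, 7101 ± 9671 in gilt 801 and 13596 ± 6525 in gilt 803. Mitochondrial genes took 81.6 ± 3.27%, 68.9 ± 28.5%, 48.1 ± 19.1% and 24.1 ± 21.2% of counts. Left out one at a time, gilt 803 and gilt 205 each ended the call of all 29 members. Leaving out the 13 granulosa-rich libraries gave 0 members called (14 of 14706 genes), as did leaving out the 23 above 10% (75 of 14538 genes). At an unadjusted p under 0.05 there were 2 of 48 members beside 832 genes without the 13, and 11 of 48 beside 909 without the 23. Both alternatives also took most of gilt 803 away: 8 and 3 of its 20 oocytes remained. Leaving out the 23 also took the only oocyte of gilt 205 at stage 1 and of gilt 801 at stage 3. Within gilt 803, the summed level had a median of 57060.3 CPM (28706 to 86831) in its 12 granulosa-rich libraries and 27028 (3799 to 103210) in its 8 others, which overlapped.

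**Figure D4:**
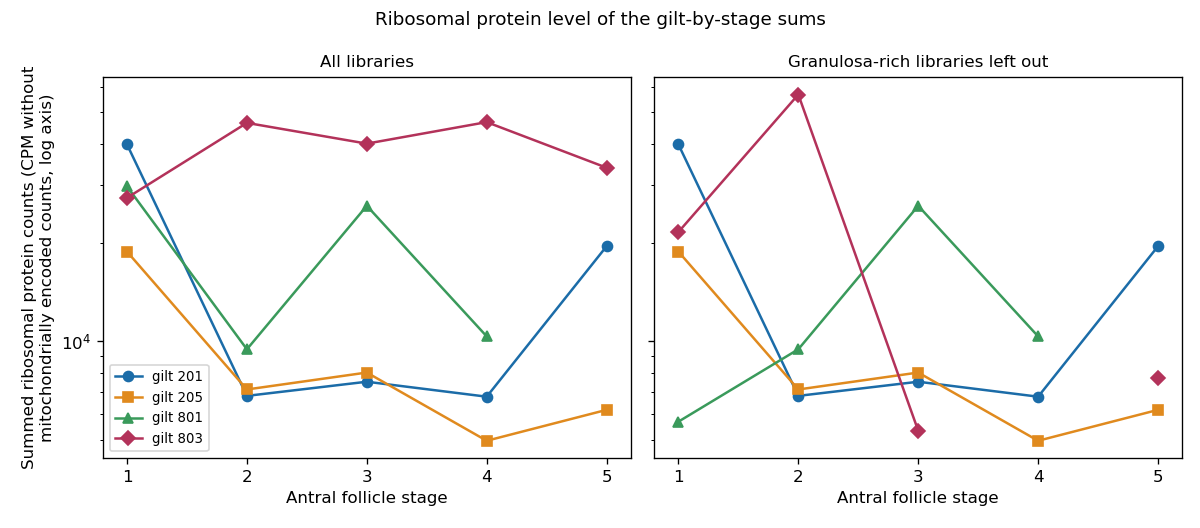
Summed ribosomal protein counts of the gilt-by-stage sums, in CPM without mitochondrially encoded genes on a log axis, by stage, with all libraries (left) and without the 13 granulosa-rich ones (right). With all libraries, gilt 803 lies highest at stages 2 to 5 (33905 to 46722 CPM), and without them it lies at 5339 at stage 3 and 7723 at stage 5 and has no library left at stage 4.

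Members did not differ by the same factor between the 2 kinds of library. For the 46 members detected in over 40 oocytes, the median in granulosa-rich libraries exceeded the median in the others for 45, by a median of 6.15-fold, with 32 above 5-fold and 0 without overlap of the groups. Of all 5874 genes detected as widely, 29.9% had the higher median in granulosa-rich libraries, 7.22% were above 5-fold and 0% had no overlap, and the median ratio was 0.371. This comparison falls largely along the line between gilt 803 and the other gilts. RPL36A stood at the top (136 against 10.5 CPM without mitochondrial genes, 12.9-fold), followed by RPS3A (1651 against 135, 12.3-fold) and RPSA (1770.1 against 155, 11.4-fold). Within gilt 803 the median factor was 2.12 for these 46 members, 2.64 for RPL36A, 3.73 for RPS3A, 8.80 for RPSA and 1.07 for RPS24.

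RPL26L1, a paralog of the large-subunit protein RPL26, was the exception in direction: 97.5 CPM (0.677 to 288) in granulosa-rich libraries and 203 (0 to 997) in the others. Its share of all ribosomal protein counts was 0.227% in granulosa-rich libraries and 2.04% in the others (medians). It averaged 117 ± 38.3 CPM in gilt 803 (SD, n = 5) and 256 ± 193 (n = 5), 227 ± 21.3 (n = 5) and 298 ± 95.4 (n = 4) in gilts 201, 205 and 801, a difference that was not called (adjusted p = 0.605 by edgeR). Its stage 5 against stage 1 change was 0.28 ± 0.68, and across oocytes its r with the summed level of the other members was -0.288 (n = 55), the lowest of the 46.

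RPS24, a small-subunit protein needed for ribosomal RNA processing, differed less between the kinds of library than most members, and was singled out after its values were seen. It had 1243 CPM (439.7 to 3095) in granulosa-rich libraries and 735 (315 to 3993) in the others, a factor of 1.69. It made up 8.36% of ribosomal protein counts in the others and 2.35% in granulosa-rich libraries. The first was the highest share there, by counts not scaled by gene length. Gilt means were 666 ± 302, 901 ± 322, 1089 ± 89.9 and 1179.8 ± 180.1 CPM in gilts 201, 205, 801 and 803 (adjusted p = 0.754 by edgeR). RPL7L1 (2.69-fold) and RPS27L (2.92-fold) were also under 3-fold.

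**Figure D5:**
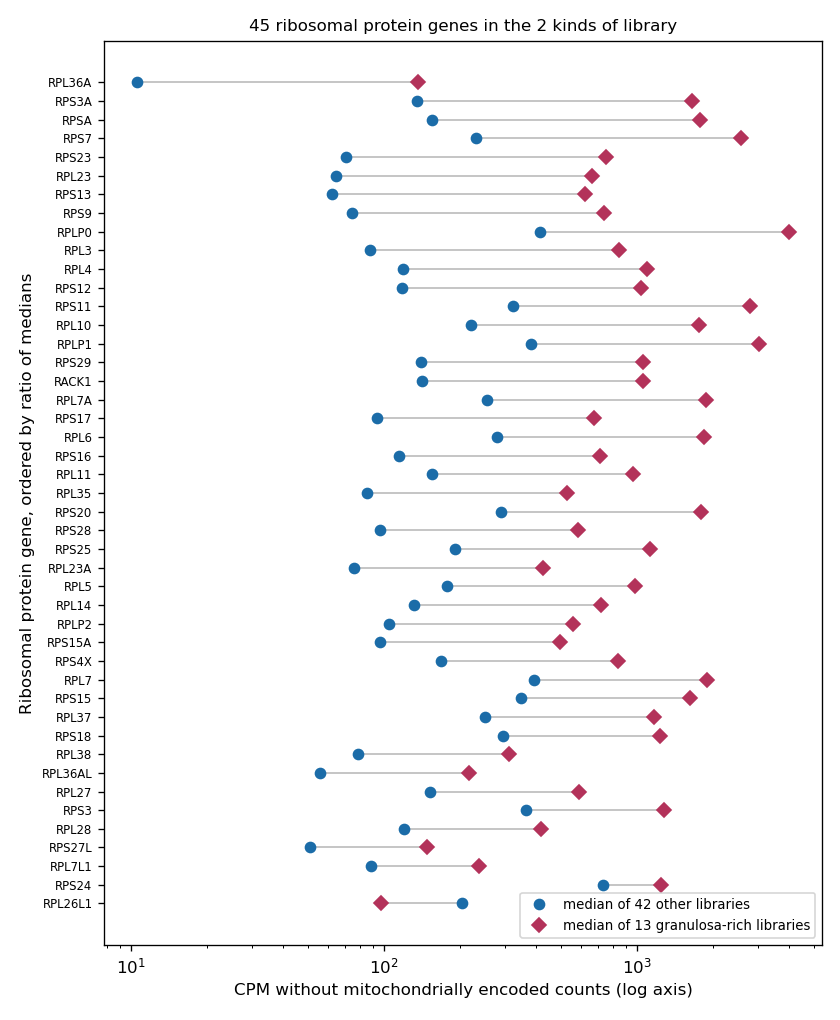
Median CPM without mitochondrially encoded genes of 45 ribosomal protein genes in 13 granulosa-rich libraries (diamonds) and 42 other libraries (circles), on a log axis, ordered by the ratio of the medians. The ratio runs from 0.481 for RPL26L1 to 12.9 for RPL36A, and 44 of the 45 diamonds lie to the right of their circles.

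Across oocytes the members moved together more in some libraries than in others. The median Pearson correlation between pairs of the 46 members (log2 scale) was 0.687 over 55 oocytes, 0.596 over the 42 others and 0.257 over the 13 granulosa-rich libraries. Large-subunit and stalk members held a median of 47.3% of the members' counts (35.9% to 55.4%), and the stage medians lay between 46.5% and 48.4%.

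Paralogs are given beside their partners where these are members. RPL36A, whose gene lies on the X chromosome in mammals, and its autosomal copy RPL36AL had stage 5 against stage 1 changes of -0.57 ± 0.97 and -0.57 ± 0.78. RPL36A was called among gilts (110.1 ± 27.0 CPM in gilt 803 and 13.6 ± 10.7 in gilt 205, adjusted p = 0.0430 by edgeR) and RPL36AL was not (203 ± 49.4 and 46.5 ± 34.9, adjusted p = 0.0832), a difference between the 2 genes that was not tested. RPL3 was called among gilts (adjusted p = 0.0263) at 645 ± 104 CPM in gilt 803 and 126 ± 72.1 in gilt 205, while RPL3L, its striated muscle paralog, had 99 counts in 12 oocytes. RPL10L, a retrocopy of RPL10 best known from the testis, had 433 counts in 11 oocytes. RPL7L1, named for its likeness to RPL7, had a change of -0.85 ± 0.78 and RPL7 of -0.86 ± 0.76. RPS27L, a paralog of RPS27 and a target of p53, had -0.25 ± 0.83. Neither RPL7L1 (adjusted p = 0.454 by edgeR) nor RPS27L (adjusted p = 0.634 by edgeR) was called among gilts.

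Levels scaled by gene length were compared between genes in the second deposited table, as a ratio to the median member of the same oocyte. Over 48 members in that table, RPS15, a protein of the small subunit head, was highest with a median ratio of 4.84. RPS29 followed at 3.94 and RPL7A at 2.96. At the other end were RPL3L and RPL10L, both at a median of 0, RPS27L at 0.096 and RPL7L1 at 0.16. RPL26L1 had a ratio of 0.27 in granulosa-rich libraries and 2.55 in the others, and RPS24 had 0.47 and 1.75. RPS15 had 4.19 and 5.18 and RPS29 had 4.46 and 3.90, so RPS29 led in granulosa-rich libraries and RPS15 in the others. RPL26L1 and RPS24 were thus lower in granulosa-rich libraries both as shares of ribosomal protein counts and as length-scaled ratios to the median member.

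Other genes with TOP messages or a part in translation were compared from a fixed list. Of 18 tested, 17 were below 0 between stage 5 and stage 1 (57.3% of all genes), with a median of -0.74 beside -0.27 for all genes. The edgeR test called 0, beside 0% of all genes, and 0 had an unadjusted p under 0.05, beside 5.37% of all genes. EEF1D, a subunit of the elongation factor 1 exchange complex, had 325 ± 144 CPM at stage 1 (SD, n = 4) and 108 ± 86.8 at stage 5 (n = 3). Its fitted change was -1.62 ± 0.86. Among gilts 5 of the 18 were called beside 2.17% of all genes, EEF1B2, EEF2, HNRNPA1, TPT1 and VIM. EEF2, the translocation factor of elongation, averaged 1168 ± 316 CPM in gilt 803 and 334 ± 208 in gilt 205 (SD, n = 5 each, adjusted p = 0.0494 by edgeR). TPT1, a growth-linked TOP message, averaged 1071 ± 387 and 200.4 ± 145 (adjusted p = 0.0124 by edgeR).

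Ribosome assembly factors were compared in the same way. Of 38 tested genes of ribosome biogenesis, 12 were below 0 between stage 5 and stage 1 (57.3% of all genes). Their median was 0.38 beside -0.27 for all genes. In this comparison edgeR called 0, beside 0% of all genes, and 0 had an unadjusted p under 0.05, beside 5.37%. Among gilts 0 were called, beside 2.17% of all genes, and 1 had an unadjusted p under 0.05, beside 12.6%. DDX21, a nucleolar helicase, had 55.5 ± 42.5 CPM at stage 1 (n = 4) and 203 ± 268 at stage 5 (n = 3), a change of 1.87 ± 0.99. BOP1, which processes large-subunit ribosomal RNA, had -3.16 ± 1.86. Summed over the list, the biogenesis genes had a median of 3590.0 CPM without mitochondrial genes in granulosa-rich libraries (1909 to 6528) and 2051 in the others (409 to 6063). The other TOP genes had 13388 (8558 to 35698) and 2925 (1202 to 15216).

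Regulators of TOP messages had changes of both signs. Of 12 tested, 5 were below 0 between stage 5 and stage 1 (57.3% of all genes), with a median of 0.18 beside -0.27 for all genes. By edgeR 0 were called, beside 0% of all genes, and 1 had an unadjusted p under 0.05, beside 5.37% of all genes. LARP1, which binds and stores TOP messages, was that gene, with 33.7 ± 5.64 CPM at stage 1 (SD, n = 4) and 108.8 ± 54.2 at stage 5 (n = 3). Its fitted change was 2.07 ± 0.90 (p = 0.0294, adjusted p = 0.904 by edgeR).

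Genes whose levels were most like the summed members over the 19 gilt-by-stage sums were found by Pearson's r on log2 levels among 9168 tested genes with at least 10 CPM. The 10 highest with a symbol were KXD1 (r = 0.980), SYVN1, RAB34, MYC (r = 0.959), GABARAP, REEP3, FLT3LG, EEF2, TUBA1B and ACTG1 (r = 0.939), and 23 genes without a symbol lay among or above them. The median r of all 9168 genes was 0.038. MYC, a transcription factor of cell growth, averaged 223 ± 108 CPM in gilt 803 (SD, n = 5) and 13.1 ± 29.0 in gilt 205 (n = 5). The most opposed genes were GIN1 (r = -0.89), HELLS and LRRC8D. The sums share gilts and libraries, so these values describe likeness only.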

How the data were processed

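The deposited count table holds whole-number counts per gene and oocyte without normalization. Tools named, per the submitters' processing notes, were StringTie 1.2.2, featureCounts, HISAT2 2.1.0 and Trim Galore 0.4.3. Genome build, strand and treatment of multi-mapped reads are not given in the sources. The second deposited table has TPM in its name, yet its column sums differ, and it was taken as a length-scaled score of another unit over 23498 genes (2382 missing). Counts were summed per gilt and stage (19 sums) and fitted with stage and gilt in edgeR 4.0.16 (R 4.3.3; TMM factors 0.270 to 3.59, filterByExpr, common coefficient of variation 1.24, two-sided quasi-likelihood tests, Benjamini-Hochberg over 15637 genes, called at 0.05), after a test on simulated data. Labels name the gilts, which pair the sums: deviations from stage means had a mean r of -0.0014, 0.217, 0.145 and 0.192 within gilts 201, 205, 801 and 803 and -0.042 between gilts. Alternatives used DESeq2 1.42.0, limma 3.58.1, other scalings and filters, and left-out gilts or libraries. Correlations used log2(CPM + 1). Named genes followed a rule: fixed roles, paralogs with partners, and the extremes of change, slope, gilt and stage tests and length-scaled level. Members and lists were chosen with earlier results of these data known. Precision is limited by 4 gilts; amplified reads carried no molecular identifiers, so counts are not independent molecules. Values of 1 member are not reported here, although it is part of sums and counts.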

Additional observations from a re-analysis of the deposited data

Results flagged for a closer look

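Of 44 groups of 4 to 10 values examined for a value far from the others, 16 held one. Chance flags about 1 in 20 independent groups, but these groups are not independent, since the same sums enter on both scales and again through single members. Gilt 803 stood apart from the other 3 gilts in summed ribosomal protein CPM at stage 2 (42907) and stage 4 (44581), and without mitochondrial genes at the same stages (46465 and 46722). Among the stages of gilt 201, stage 1 stood apart (9599.6 CPM). Among the stages of gilt 205, stage 1 stood apart on both scales (15377 CPM and 18800.3 without mitochondrial genes); that sum is 1 oocyte, which also stood apart among the 9 oocytes of its gilt. Single members repeated the pattern of gilt 803 without mitochondrial genes: RPSA (1537 CPM at stage 2 and 1662 at stage 4), RPLP0 (2979.6 and 3480.0), RPS12 (1013 and 692) and RACK1 (1122 at stage 2). RPL26L1 stood apart in gilt 201 at stage 3 (586 CPM). Gilt 803 held 1 granulosa-rich library of 4 at stage 2 and 4 of 4 at stage 4; their part in these values was not tested.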

How the results depend on the processing

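No stage comparison called a member under any alternative. The gilt test called 29 members, and 0 to 39 with 1 gilt left out. It called 0 without the granulosa-rich libraries, 0 without the 23 libraries with granulosa counts above 10% of oocyte counts, and 26 to 43 otherwise. Both library filters leave fewer sums of gilt 803, and leaving out the 23 also removes gilt 205 at stage 1 and gilt 801 at stage 3. The genes called among gilts were 339, and 1327 without TMM factors, 935 unfiltered, 1006 by DESeq2, 873 with each oocyte as a library, 27 to 549 with 1 gilt left out, and 14 and 75 under the library filters. Genes called between stages were 0 to 2 in edgeR but 47 to 415 by DESeq2 and 2 to 216 unfiltered; 14 genes were called for stage 2 against stage 1 and 29 among stages with the 23 libraries out, 34 among stages with each oocyte as a library, and up to 50 with 1 gilt left out. Of the adjusted p of named members among gilts, 31 moved below 0.05, 50 above it and 231 stayed on their side, and DESeq2 gave none for RPL3L and RPL10L.

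The median member change for stage 5 against stage 1 (-0.77) was -1.88 without TMM factors, when that of all genes moved from -0.27 to -1.16. The median member change was 0.36 with the 23 libraries out, when all genes had 0.33 and only gilt 201 kept both stages. Leaving out each gilt in turn gave -0.97 to -0.42. That of stage 2 against stage 1 was 0.62 with the 23 out; that of stage 3 against stage 2 was -0.20 without granulosa-rich libraries and -0.52 with the 23 out. The summed level of the members at stage 1 was 28977 CPM without mitochondrial genes and was 14971 on all counts from the median oocyte of each gilt, beside 11408 on all counts. Under the other alternatives these values moved by less than the SD between gilts. Pairing by gilt mattered for size: with no replicate block the medians were -0.16 (stage 5 against stage 1) and -0.050 (trend).

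Changes of single members that turned sign, in log2 units, had adjusted p of 0.83 or more. Stage 5 against stage 1, no replicate block: RPL27 0.45, RPL3 0.20, RPL36A 0.43, RPLP1 0.28, RPLP2 0.014, RPS12 0.012, RPS15 0.091. Each oocyte as a library gave RPL27 0.28, RPL36A 0.42, RPL36AL 0.46, RPL7L1 0.17, RPLP2 0.079, RPS15 0.058, RPS27L 0.26. With the 23 libraries out the values were RPL27 1.97, RPL3 0.24, RPL36A 7.23, RPL36AL 0.36, RPL7 0.71, RPL7A 0.13, RPLP0 0.77, RPLP1 0.69, RPLP2 0.63, RPS12 0.11, RPS2 5.32, RPS27L 0.58, RPS29 0.064, RPSA 0.86. Without granulosa-rich libraries they were RPL26L1 -0.19, RPL27 0.31, RPS18 -0.22. Without TMM factors they were RPL26L1 -0.53, RPS18 -0.99, and RPS18 was -0.15 with DESeq2 size factors and in the DESeq2 test. With 1 gilt left out, RPL27 ran from -0.71 to 0.54, RPL36AL from -1.11 to 0.12, RPS18 from -0.35 to 0.44 and RPS27L from -0.82 to 0.19.

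Slopes per stage turned as follows. With no replicate block they were RPL27 0.054, RPL3 0.037, RPL36A 0.0995, RPL36AL 0.037, RPLP1 0.050, RPS18 0.099. Each oocyte as a library gave RPL27 0.040, RPL36A 0.090, RPL36AL 0.21, RPL7L1 0.059, RPLP2 0.033, RPS15 0.022, RPS18 0.12, RPS27L 0.077. With the 23 libraries out they were RPL26L1 -0.0077, RPL27 0.18, RPL36A 0.94, RPL36AL 0.091, RPL7A 0.020, RPLP1 0.011, RPLP2 0.052, RPS18 0.083, RPS2 0.67, RPS27L 0.089, RPSA 0.0078. RPL26L1 was -0.029 without granulosa-rich libraries and -0.045 without TMM factors, and RPS18 was 0.037 by limma-voom. With 1 gilt left out, RPL27 ran from -0.17 to 0.049, RPL36AL from -0.13 to 0.059, RPS18 from -0.15 to 0.11 and RPS27L from -0.14 to 0.0041. The cause was not tested for any of these.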
